A study of Mus musculus with 6 samples.

Results

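The 77 genes described here encode proteins of the mitochondrial ribosome, and they were taken from the 16472 genes in the authors' deposited table by their symbols, Mrpl or Mrps followed by a number and at most 1 letter. Of these, 48 carry the large subunit prefix Mrpl and 29 the small subunit prefix Mrps. HT22 is a permanent cell line of mouse hippocampal origin, and AA147 is a small molecule known to activate the stress regulators ATF6 and NRF2. Cultures of HT22 were given AA147 or the vehicle DMSO for 16 h, with 3 mRNA libraries per group and no genetic change in either group. The labels give the AA147 concentration as 10 mM, a unit that could not be checked here and may be a slip in the labels. They do not say whether replicates came from separate cultures, so the p-values may measure technical spread only.

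Mitochondria keep a small genome of their own and translate its mRNAs on a dedicated ribosome, the mitoribosome. Its RNA is made inside the organelle, while all of its proteins are encoded in the nucleus, made in the cytosol and imported. About its core sit proteins inherited from the bacterial ancestor, and around these sit proteins that bacterial ribosomes lack. The small subunit reads the mRNA, and the large subunit joins amino acids into the membrane proteins of the respiratory chain. The genes are expressed in nearly all cells, neurons included, and often carry promoters of the housekeeping type.

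The values come from 1 finished comparison that the authors deposited, with a mean normalized count over all libraries, a log2 fold change, its standard error (SE) and p-values for each gene. It has no value for a single library, so depth per library and replicate spread enter only through the SE. The table does not name the numerator of the ratio. Positive values are taken here to mean higher with AA147, and the ground for this is that in the authors' deposited table the known NRF2 targets Gsta4 and Nqo1 stand at 1.84 (SE 0.071) and 0.93 (SE 0.067). If the ratio were turned, higher and lower would swap throughout. A gene is called when the authors' deposited table gives it an adjusted p under 0.05, DESeq2's Benjamini-Hochberg value over 13597 genes. As for the labelled cell type, 8 of 12 neuronal markers, among them Map2, Rbfox3 and Snap25, had no line in the authors' deposited table, while 5 of 6 fibroblast markers had one. The neuronal tubulin gene Tubb3, at a mean of 1199, was called higher at 0.43 (SE 0.092). The synaptic genes Dlg4 and Syn1, at means of 1653 and 562, were listed and not called. The remaining neuronal marker with a line, Slc17a7, at a mean of only 3.93, stood at -1.98 (SE 1.26) and had no adjusted p. All 5 fibroblast markers were called lower, from -1.52 (SE 0.066) for the collagen gene Col1a1, at a mean of 139176, to -0.81 (SE 0.174) for Dcn. Of the markers of astrocytes, microglia and oligodendrocytes, 2, 1 and 2 of 4 each had a line. Among them the astrocyte marker Slc1a3, at a mean of 927, was called lower at -1.30 (SE 0.089). The microglial Csf1r, at a low mean of 48.0, was called higher at 0.95 (SE 0.336). The part of such markers in the results below was not tested.

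To show what lies in front of these genes, the 250 bases before the annotated start are given for 4 of them, from the RefSeq promoter table of build GRCm38.p6, all read on the plus strand. They are the called genes Mrps31, Mrpl33 and Mrpl52 and the gene Mrps11, whose start region is shared with a large subunit gene. Capitals mark matches, on either strand, to a short motif.
Mrps31, chr8:22411090-22411339: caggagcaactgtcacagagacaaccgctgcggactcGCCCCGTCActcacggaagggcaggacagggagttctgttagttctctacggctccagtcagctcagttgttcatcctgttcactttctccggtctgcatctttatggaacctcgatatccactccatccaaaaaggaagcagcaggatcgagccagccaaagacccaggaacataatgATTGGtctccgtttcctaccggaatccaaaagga
Mrpl33, chr5:31613701-31613950: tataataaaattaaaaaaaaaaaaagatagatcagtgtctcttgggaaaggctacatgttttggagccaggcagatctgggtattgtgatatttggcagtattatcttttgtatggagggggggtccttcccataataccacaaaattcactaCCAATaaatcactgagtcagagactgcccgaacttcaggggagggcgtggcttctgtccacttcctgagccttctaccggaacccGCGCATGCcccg
Mrpl52, chr14:54426659-54426908: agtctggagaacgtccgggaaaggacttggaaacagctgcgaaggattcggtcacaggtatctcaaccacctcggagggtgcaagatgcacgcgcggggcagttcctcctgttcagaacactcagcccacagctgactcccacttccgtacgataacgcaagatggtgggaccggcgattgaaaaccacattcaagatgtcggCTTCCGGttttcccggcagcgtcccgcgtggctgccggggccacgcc
Mrps11, chr7:78782881-78783130: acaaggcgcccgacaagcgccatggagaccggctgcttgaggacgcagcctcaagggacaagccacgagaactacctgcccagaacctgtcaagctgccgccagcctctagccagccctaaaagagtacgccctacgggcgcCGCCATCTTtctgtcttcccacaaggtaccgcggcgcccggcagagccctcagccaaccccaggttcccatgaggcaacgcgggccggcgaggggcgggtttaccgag
In Mrps31 the capitals are the antioxidant response element TGACNNNGC and the CCAAT box, both on the reverse strand. In Mrpl33 they are CCAAT and the core of the NRF1 motif, GCATGCGC, here on the reverse strand. In Mrpl52 they are the ETS motif CCGGAAG and in Mrps11 the YY1 motif AAGATGGCG, both on the reverse strand.

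The share of mitoribosome genes called was close to that of all genes tested. The called changes were small and went in both directions, as calls over all genes did. The authors' deposited table called 14 of the 77 genes, 18.2%, of which 6 were higher and 8 lower. Over all genes tested it called 20.2%, so the share among mitoribosome genes lay near the background. The same was so by direction, with 7.79% of the mitoribosome genes higher against 9.05% of all genes, and 10.4% lower against 11.1%. Of genes with a mean of at least 100, which all of the mitoribosome genes but Mrpl23 have, 23.8% were called. A class with means of 1000 to 5000 was chosen after the values were seen. In it, 10 of 55 mitoribosome genes, 18.2%, were called against 26.1% of all genes. The authors' deposited table gave an unadjusted p under 0.05 to 28.6% of the mitoribosome genes and to 30.6% of all genes. With the test statistic divided by its robust SD over all genes, 1.80, 0 of the 14 calls remained and 3.6% of all genes were still called, while 22 genes had an unadjusted p under 0.05 as deposited.

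The fold changes were centred on no change. Their median in the authors' deposited table was 0.01 over the 77 genes and 0.01 over all genes tested. In sign, 41 were positive and 36 negative. Their interquartile range was 0.22, beside 0.27 for genes with a mean of at least 100. The widest values were 0.42 for Mrps31, a rise of 33.6%, and -0.29 for Mrpl4. The authors' deposited table holds 10633 genes with a mean of at least 100, and 8.74% of them had a larger absolute fold change than Mrps31.

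**Figure D1:**
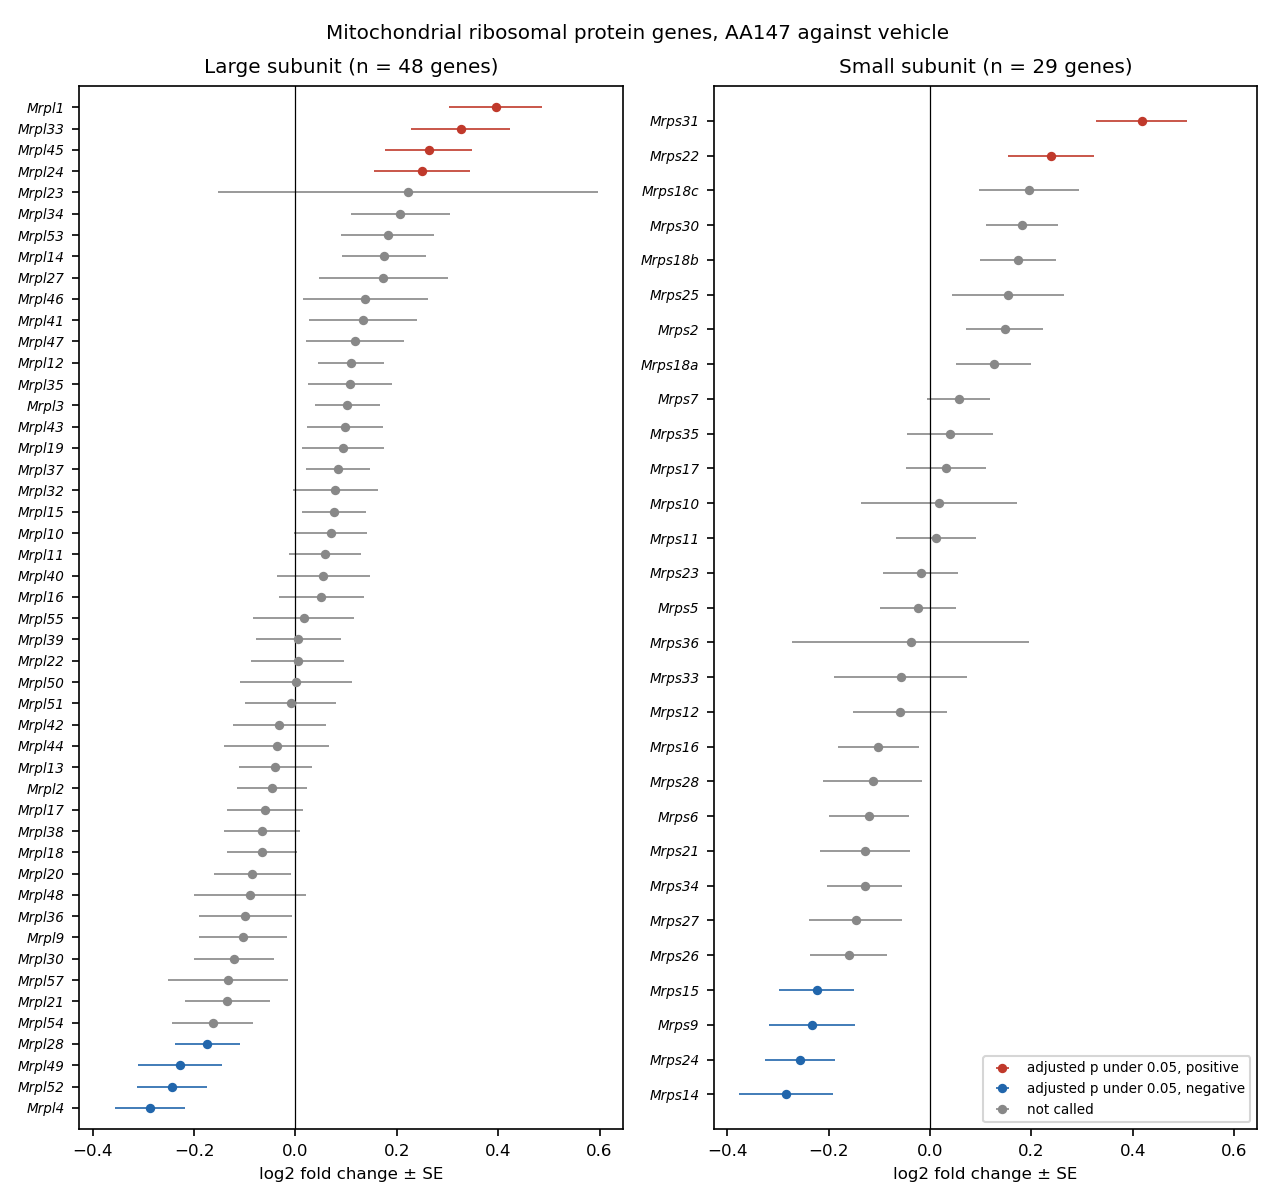
Log2 fold change of each of the 77 mitoribosome genes (points) with its SE (bars), on the horizontal axis, for the 48 large subunit genes (left) and 29 small subunit genes (right), in the authors' deposited table. Red points are the 6 genes called higher and blue points the 8 called lower; both panels run from clearly negative to clearly positive values around 0.

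The SEs set bounds on what was not called, given here as a band of 0.5 on either side of 0. This band is wider than every called change, from -0.29 to 0.42, so it does not separate uncalled from called genes. Of the 63 genes not called, 62 had a 95% interval, computed from the fold change and its SE under a normal distribution, that lay wholly between -0.5 and 0.5. The exception was Mrpl23, the counterpart of the bacterial exit tunnel protein, with a mean of 32.8 and an interval from -0.51 to 0.96. Within 1 SE of 0 lay 29 of the 77 genes. The median SE was 0.084 in the authors' deposited table, and none of the 77 had an SE as much as 1.5 times that usual for its mean, the largest ratio being 1.28.

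**Figure D2:**
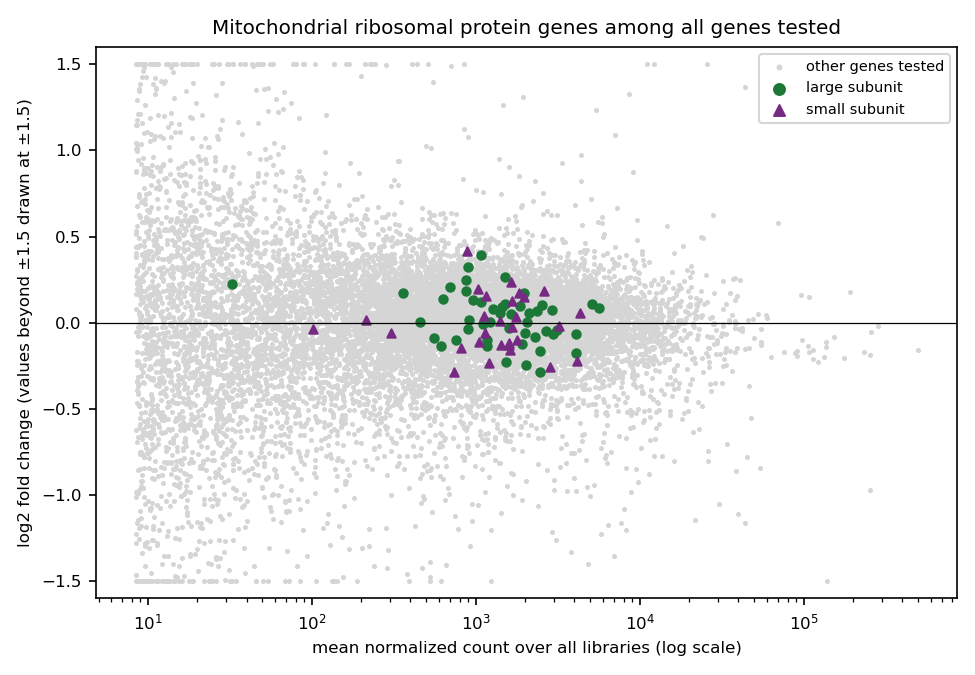
Log2 fold change (vertical axis) against mean normalized count (horizontal axis, log scale) for the genes tested in the authors' deposited table (grey), with large subunit genes as green circles and small subunit genes as purple triangles. The mitoribosome genes sit in the middle of the cloud, between -0.29 and 0.42, with Mrpl23 alone at a mean under 100.

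Among the large subunit genes called higher, Mrpl1 encodes the counterpart of the bacterial protein on the movable stalk beside the tRNA exit site. Its level was 1216 normalized counts with AA147 and 924 with vehicle, as implied by its mean of 1070 and its fold change in the authors' deposited table. That fold change was 0.40 (SE 0.092, adjusted p 0.000239). Mrpl33, which encodes a small conserved protein of the large subunit, stood in the same way at 1002 with AA147 and 800 with vehicle. Its fold change in the authors' deposited table was 0.33 (SE 0.098, adjusted p 0.00740). These were the largest rises among the large subunit genes. A non-coding gene on the same strand shares 14.6% of the exons of Mrpl33.

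Mrpl45, which holds the ribosome to the inner membrane near the exit of the nascent chain, had an implied level of 1646 with AA147 and 1371 with vehicle. Its fold change in the authors' deposited table was 0.26 (SE 0.086, adjusted p 0.0148). Mrpl24, a conserved large subunit gene, was called at 0.25 (SE 0.095, adjusted p 0.0456), the highest adjusted p among the 14 calls in the authors' deposited table. This call ended when fold changes were centred on the median of genes with a mean of at least 100, and also after correction for transcript length, GC content and expression. An opposite-strand gene, Mettl25b, covers 39.8% of the exons of Mrpl24, and the libraries did not record strand, so its value is uncertain.

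The large subunit genes called lower began with Mrpl4, whose bacterial counterpart lines the exit tunnel. Its implied level was 2229 with AA147 and 2720 with vehicle, and its fold change in the authors' deposited table was -0.29 (SE 0.069, adjusted p 0.000458). A further copy of its transcript lies elsewhere in mouse assembly GRCm39 at 96.1% identity, which makes this value less certain. Mrpl52 and Mrpl49 encode proteins that bacterial ribosomes lack. Mrpl52 had implied levels of 1864 with AA147 and 2207 with vehicle, a fold change of -0.24 (adjusted p 0.00353, SE 0.069) in the authors' deposited table. Mrpl49 followed at -0.23 (adjusted p 0.0317, SE 0.082) in the authors' deposited table. Mrpl28, a conserved protein and the gene with the highest level per kilobase of transcript, was called at -0.17 (adjusted p 0.0361, SE 0.064) in the authors' deposited table. Its call ended after correction for transcript length, GC content and expression, which left -0.09.

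The small subunit held the largest rise of all 77 genes, that of Mrps31, which encodes a protein that bacterial ribosomes lack. Its level implied by the authors' deposited table was 1013 normalized counts with AA147 and 758 with vehicle. The fold change was 0.42 (SE 0.090, adjusted p 6.15e-05), and it was the single call of the 77 that passed a Bonferroni adjustment. Mrps22, likewise specific to mitochondria, had implied levels of 1766 with AA147 and 1497 with vehicle. Its fold change in the authors' deposited table was 0.24 (SE 0.085, adjusted p 0.0293), and 16.4% of its exons are covered by the opposite-strand gene Copb2. Copb2 itself was not called in the authors' deposited table, at -0.07 (SE 0.057).

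The 4 small subunit genes called lower all encode proteins with a bacterial counterpart. Mrps14 had implied levels of 668 with AA147 and 813 with vehicle, and its fold change in the authors' deposited table was -0.28 (SE 0.093, adjusted p 0.0149). The opposite-strand gene Cacybp, which covers 18.9% of the exons of Mrps14, was also called lower in the authors' deposited table, at -0.22 (SE 0.068), and reads of the pair cannot be told apart where they overlap. Mrps24, the counterpart of a bacterial protein at the mRNA entry site, stood at 2583 with AA147 and 3086 with vehicle. Its fold change in the authors' deposited table was -0.26 (SE 0.069, adjusted p 0.00217). Mrps9 followed at -0.23 (SE 0.085, adjusted p 0.0333) and Mrps15 at -0.22 (adjusted p 0.0180, SE 0.075) in the authors' deposited table. Oscp1, which lies on the same strand and shares 12.1% of the exons of Mrps15, was called lower too, at -0.35 (SE 0.090) in the authors' deposited table.

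The subunits were set side by side by counts and medians. The authors' deposited table called 8 of 48 large subunit genes, 4 higher and 4 lower, and 6 of 29 small subunit genes, 2 higher and 4 lower. These are 16.7% and 20.7%, beside the background of 20.2%. The median fold change was 0.03 for the large and -0.02 for the small subunit. Their difference of 0.06 has no test, because genes are not replicates. In sign, 28 of 48 large and 13 of 29 small subunit genes were positive. The implied counts summed over the large subunit were 85140 with AA147 and 84824 with vehicle, a log2 ratio of 0.01, and those over the small subunit were 46533 and 47081, a log2 ratio of -0.02.

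The prefix does not always give the subunit. Mrps30 and Mrps18a encode proteins that sit in the large subunit, and Mrps36 encodes a part of the 2-oxoglutarate dehydrogenase complex. With these genes placed by structure, the median was 0.05 over 50 large subunit genes and -0.04 over 26 small subunit genes, and the difference of medians became 0.09. The calls stayed at 8 and 6. Mrps30 lay just outside the threshold at 0.18 (adjusted p 0.0545, SE 0.072) in the authors' deposited table, and Mrps36 had a fold change of -0.04 (SE 0.234) at a mean of 102. Beside Mrps30, the next gene outside the threshold was Mrps18b with an adjusted p of 0.0854, and the nearest inside were Mrpl24 and Mrpl28.

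Mrps18a, Mrps18b and Mrps18c descend from the same bacterial protein and occupy different places on the mitoribosome. All 3 had positive fold changes in the authors' deposited table, and none was called. The values were 0.13 (SE 0.074, adjusted p 0.243) for Mrps18a, 0.17 (SE 0.075) for Mrps18b and 0.20 (SE 0.098, adjusted p 0.155) for Mrps18c. After correction for transcript length, GC content and expression, Mrps18a at 0.19 and Mrps18b at 0.21 passed the threshold. A copy of Mrps18b at 99.9% identity lies elsewhere in GRCm39, and an opposite-strand gene, Abraxas1, covers 64.2% of the exons of Mrps18c, so both values are uncertain.

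Divided by origin, 45 genes encode proteins with a bacterial counterpart and 29 encode proteins specific to mitochondria. The authors' deposited table called 3 of the conserved genes higher and 6 lower, with a median of 0.01, and 3 of the specific genes higher and 2 lower, with a median of 0.00. Over all genes, 9.05% were called higher and 11.1% lower. In the small subunit, the conserved genes had 0 calls higher and 4 lower among 16, with a median of -0.08. The specific genes there had 2 calls higher and 0 lower among 10, with a median of 0.01. Without Mrps30, which sits in the large subunit, the remaining 9 had the same calls and a median of -0.02. In the large subunit the medians were 0.07 for 29 conserved and 0.00 for 19 specific genes, with calls in both directions in each class. These differences have no test.

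**Figure D3:**
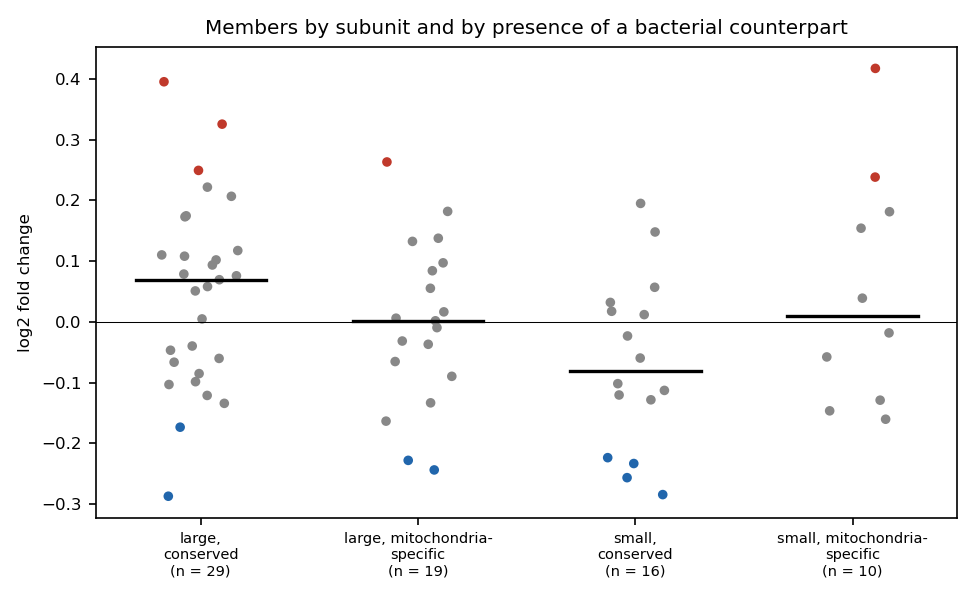
Log2 fold change (vertical axis) of mitoribosome genes by subunit prefix and by presence of a bacterial counterpart, 1 point per gene in the authors' deposited table, with black lines at the medians. Red points were called higher and blue points lower; the 4 blue points of the small subunit are all conserved genes and its 2 red points are specific to mitochondria, where 9.05% of all genes were called higher and 11.1% lower.

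The genes differed far more in level than in response. Means ran from 32.8 for Mrpl23 to 5621 for Mrpl37, with a median of 1510 normalized counts in the authors' deposited table. The abundant Mrpl37, Mrpl12, which forms the stalk that recruits translation factors, and Mrps7 had fold changes of 0.08 (SE 0.063), 0.11 (SE 0.065) and 0.06 (SE 0.062), none of them called. Per kilobase of transcript, the mean ran from 47.4 for Mrpl23 and 91.2 for Mrps36 to 2999 for Mrpl20 and 3814 for Mrpl28. The median per kilobase was 702 for the large and 635 for the small subunit. Together the 77 genes made up 0.428% of the sum of all means that the authors' deposited table lists. A copy of Mrpl23 at 100% identity and copies of Mrps36 at up to 99.7% lie elsewhere in GRCm39, so the low levels of both genes are uncertain. Mrps10, with a mean of 214, had a copy at 98.0% and a fold change of 0.02 (SE 0.154) in the authors' deposited table. In all, 18 of the 77 genes had such a copy at 90% identity or more, Mrpl4 being the single called gene among them. In the GENCODE annotation another gene overlaps at least 10% of the exons of 28 of the 77, a protein-coding one in 18. The libraries did not record strand, and how reads in such overlaps were counted is not known, so these values are less certain.

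Transcript length moved little with the fold change. The 26 shortest, from 555 to 1288 bases, had a median fold change of -0.03, and the 26 longest, from 2896 to 7366 bases, one of 0.05. In the authors' deposited table the medians for all genes of these lengths, given a mean of at least 100, were -0.04 and 0.03. Across the 77 genes, Spearman's rho with length was 0.06 and with GC content -0.18, as a description across genes that share the same libraries.

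Some mitoribosome genes lie head to head with another gene, so that both start from a shared stretch of DNA. In the GENCODE annotation, 14 of the 77 have a protein-coding neighbour on the opposite strand that starts at most 1000 bases upstream, and these form 13 pairs. The share of all genes with such a neighbour was not counted. In 1 pair both genes are mitoribosomal, Mrpl46 of the large and Mrps11 of the small subunit, with starts 30 bases apart and the upstream sequence printed above for Mrps11. Their fold changes in the authors' deposited table were 0.14 (SE 0.123) and 0.01 (SE 0.080), and neither was called. Mrps12, whose bacterial counterpart sits at the decoding centre, starts 129 bases from Sars2, the mitochondrial seryl-tRNA synthetase. In the authors' deposited table that pair stood at -0.06 (SE 0.093) and -0.09 (SE 0.104), not called. Mrpl43 starts 56 bases from the mitochondrial DNA helicase gene, listed as Peo1, and the authors' deposited table gave 0.10 (SE 0.075) and 0.03 (SE 0.085).

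Of the genes in the 13 pairs, Mrpl49 and Tmem63b were called, where 20.2% of all genes tested were. In 10 of the 13 pairs both genes had the same sign, while 51.7% of all genes tested were positive. Likeness within pairs was not tested. Mrpl49 was called lower, while Fau, 52 bases away, which encodes a cytosolic ribosomal protein fused to a ubiquitin-like protein, had -0.02 with a wide SE of 0.234 in the authors' deposited table. Tmem63b, a channel gene 7 bases from Mrpl14, was called higher at 0.33 (SE 0.062), and Mrpl14 itself, at 0.17 (SE 0.083, adjusted p 0.128), was not called in the authors' deposited table.

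**Figure D4:**
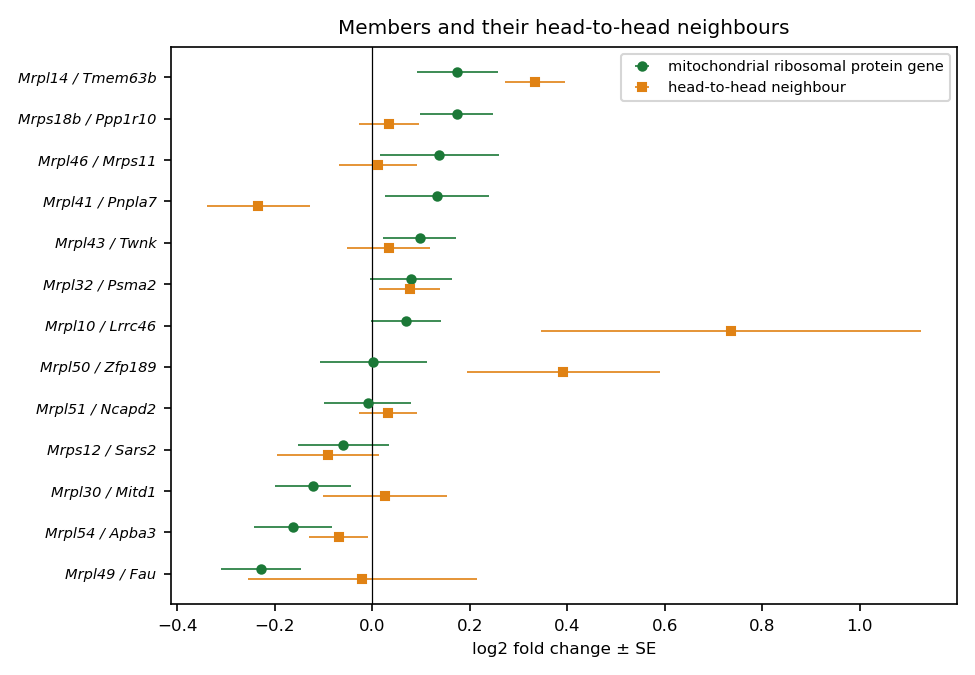
Log2 fold change with its SE (horizontal axis) of mitoribosome genes (green circles) and of the protein-coding gene that starts head to head with each (orange squares), for 13 pairs in the authors' deposited table. In the 13 pairs, Mrpl49 and Tmem63b were the genes called, where 20.2% of all genes tested were, and 10 pairs share a sign. In the Mrpl46 pair the neighbour Mrps11 is a mitoribosome gene as well.

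RefSeq promoters, from 250 bases before to 50 after the start, were found for 68 of the 77 genes, as 74 windows. The ETS motif CCGGAAG, bound by factors such as GABP that drive mitochondrial genes, occurred in 33.8% of these windows and in 15.9% of the 14047 windows of all genes in the authors' deposited table. The NRF1 core GCATGCGC occurred in 10.8% against 4.73%, and the full NRF1 motif, which contains the core, in 4.05% against 1.88%. The YY1 motif AAGATGGCG occurred in 10.8% against 2.61%. The antioxidant response element TGACNNNGC, the kind of site that NRF2 binds, occurred in 17.6% against 14.2%. The amino acid response element TGATGNAAN occurred in 0% against 2.59%, the CCAAT box in 40.5% against 38.2%, the E-box CACGTG in 9.46% against 9.48%, and the palindromic Kaiso motif in 1.35% against 0.883%. Both strands were searched in each case, and a match is a description of letters only.

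Fold changes of genes with and without a motif are given as medians, with no test. The groups are small, and over all genes tested 20.2% were called, 9.05% higher and 11.1% lower. The 25 genes with an ETS match had a median of -0.02 and the others one of 0.03 in the authors' deposited table, and 2 of the 25 were called higher and 1 lower. The 13 genes with an antioxidant response element match had a median of 0.00, against 0.02 for the others, with 1 called higher, Mrps31, and 1 lower. The 8 genes with the NRF1 core had a median of 0.04, against 0.01 without it, and the 8 with the YY1 motif one of -0.01, against 0.02. The 27 genes with a CCAAT box held 5 of the calls, 2 higher and 3 lower, and their median was 0.01, against 0.02 without it. The 5 with an E-box had a median of -0.05, against 0.02, and 0 were called.

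Of 13 nuclear genes that regulate mitochondrial gene expression, 30.8% were called, beside 20.2% of all genes. Nrf1 at -0.01 (SE 0.080), the GABP subunit gene Gabpa at 0.00 (SE 0.064), Yy1 at 0.00 (SE 0.066) and Esrra at 0.03 (SE 0.088), all factors known to drive such genes, were not called in the authors' deposited table. The other GABP subunit genes, Gabpb1 at -0.20 (SE 0.083, adjusted p 0.0806) and Gabpb2 at -0.02 (SE 0.135), were not called either. Of the 13 genes, 1 was called higher and 3 lower, with a median of -0.01. Myc rose by 0.25 (SE 0.072, adjusted p 0.00484), and the coactivator gene Pprc1 fell by 0.17 (adjusted p 0.0326, SE 0.063) in the authors' deposited table. In the authors' deposited table the stress factor gene Atf4 fell by 0.51 (SE 0.061) and Atf5 by 0.52 (SE 0.073).

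Some mitoribosomal proteins have genes with other names, and 1 of these was called. The share called was 14.3% of the 7 such genes in the list, beside 20.2% of all genes. Of the 7, Mrpl57 already belongs to the 77. Among the other 6, Ptcd3, which encodes a protein of the small subunit, rose by 0.23 (adjusted p 0.00990, SE 0.071) in the authors' deposited table. That call ended after correction for transcript length, GC content and expression. The rest were not called and stood close to 0, with Dap3 at -0.07 (SE 0.065), Ict1 at -0.08 (SE 0.074), Chchd1 at -0.03 (SE 0.085), Aurkaip1 at -0.03 (SE 0.070) and Gadd45gip1 at -0.01 (SE 0.084) in the authors' deposited table. Mrpl57 had a fold change of -0.13 (SE 0.118) there.

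Of 28 genes for assembly of the mitoribosome and modification of its RNA, the authors' deposited table called 4 higher and 1 lower. These are 17.9%, beside 20.2% of all genes, and the list's median was 0.05. Mettl15, which methylates the small subunit RNA, rose by 0.60 (SE 0.166, adjusted p 0.00293), a larger value than that of any of the 77 genes. Fastkd2 and Grsf1, which act in mitochondrial RNA granules, rose by 0.29 (SE 0.085) and by 0.21 (SE 0.065), and Mterf4, the partner of an RNA methyltransferase, by 0.28 (SE 0.10) in the authors' deposited table. Afg3l2, a protease of the inner membrane that processes Mrpl32, fell by 0.25 (adjusted p 0.000944, SE 0.064) in the authors' deposited table. Mrpl32 itself stood at 0.08 (SE 0.084) there and was not called.

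Of 16 mitochondrial translation factors, 1 was called, the elongation factor gene Gfm1, which rose by 0.19 (adjusted p 0.0150, SE 0.061) in the authors' deposited table. The list's median was 0.03. Of 10 genes for mitochondrial DNA transcription and replication, Mterf1a, at a mean of 127, was the 1 called, at 0.57 (adjusted p 0.0350, SE 0.210) in the authors' deposited table. Its close relative Mterf1b, at a low mean of 40.4, stood there at 0.61 (SE 0.353, adjusted p 0.229) and was not called. That list's median was 0.02, and the call of Mterf1a ended after correction for transcript length, GC content and expression. The shares called were 6.25% of the translation factors and 10% of the transcription and replication genes, beside 20.2% of all genes.

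The mRNAs that the mitoribosome translates and those of cytosolic ribosomal proteins were mostly on the negative side. In the authors' deposited table all 13 protein-coding genes of the mitochondrial genome were negative, from -0.23 to -0.05, and their median was -0.17. Of these, COX2 at -0.23 (SE 0.081), ATP6 at -0.21 (SE 0.075) and COX3 at -0.17 (SE 0.064) were called lower, 23.1% beside 11.1% of all genes. After correction for transcript length, GC content and expression, 0 were called, beside 23.2% of all genes called in either direction. Their means ran from 13682 to 498235, beside a median of 1191 for genes with a mean of at least 100. The fitted trend is less certain so far above most genes, so the loss of the calls cannot show whether these mRNAs fell. The 13 genes come from shared precursor transcripts, so they are not independent of each other.

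Of 80 cytosolic ribosomal protein genes, the authors' deposited table called 24 lower, 30%, and 0 higher, beside 11.1% lower and 9.05% higher of all genes. Their median was -0.14, and 61 of 80 were negative. Of the 77 mitoribosome genes, 8 were called lower and 6 higher. The cytosolic genes were the more abundant, with a median mean of 3215 against 1510 for the mitoribosome genes. The 8 cytosolic genes with the smallest adjusted p in the authors' deposited table were Rplp1, Rpsa, Rps2, Rpl8, Rps20, Rpl4, Rpl11 and Rps14, with fold changes from -0.38 for Rplp1 to -0.20 for Rpl4. After correction for transcript length, GC content and expression, 9 of 78 cytosolic genes, 11.5%, were called lower, all 9 of them among the 24. Why the other calls ended at this step was not tested. In the same step the mitoribosome calls went from 14 of 77 genes to 16 of 76, or 21.1%, and the share of all genes called went from 20.2% to 23.2%. Of the 14, 12 were called both ways. The difference between the ribosomes was not tested, and cytosolic ribosomal protein genes have many near-identical copies in the genome, which makes their single values uncertain.

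**Figure D5:**
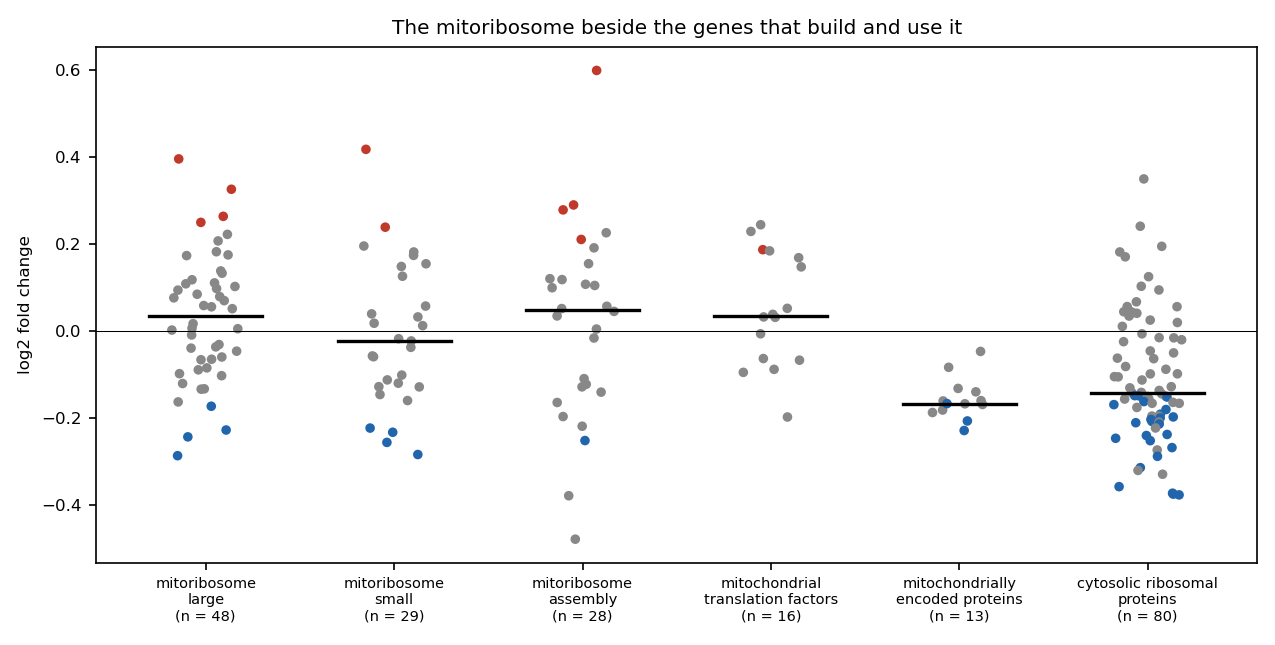
Log2 fold change (vertical axis) of 6 groups of genes in the authors' deposited table, 1 point per gene, with black lines at the medians and genes called higher in red and lower in blue. The medians of both mitoribosome subunits lie near 0, at 0.03 and -0.02, while those of the mitochondrially encoded and cytosolic ribosomal protein genes lie at -0.17 and -0.14.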

How the data were processed

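HT22 RNA was sequenced as 3 AA147 and 3 vehicle libraries of non-stranded mRNA, per the labels' protocols. The submitters' processing notes name DESeq2 and build mm9; aligner, counter and annotation are not given in the sources used here. The authors deposited 1 comparison with a mean normalized count per gene, a signal over all libraries. The authors deposited a log2 fold change with its SE, and a score, the test statistic that divides them. The authors deposited a p-value from that statistic and its adjusted form. Depth per library is unknown.

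Members and lists were chosen with earlier results of these data known. No new test across libraries was run. Named genes were every called member, the extremes of each subunit and of the means, those nearest the threshold, those with an SE at least 1.5 times that of genes with a similar mean, the Mrps18 genes, Mrps30 and Mrps36, and up to 8 called genes per other list. Implied group levels solve the mean and fold change for equal groups and are approximate. Lengths, overlaps and neighbours came from GENCODE M39, copies from minimap2 2.31-r1302 on GRCm39 (at least 50% of the transcript aligned at 90% identity), and the trend was a robust regression on log length, GC content and log mean with quadratic terms over 10122 genes (statsmodels 0.14.6). Code was tested on simulated data.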

Additional observations from a re-analysis of the deposited data

How the results depend on the processing

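The table has no values per library, so leaving out replicates and other size factors were not run. No paired analysis was possible because the deposited comparison gives no value for single libraries. Of the alternatives, those for the other lists and for single genes were chosen after the data were seen. The 14 calls, 8 in the large and 6 in the small subunit, became 6, 4 and 2 at an adjusted p under 0.01; 1, 0 and 1 with Bonferroni; 3, 2 and 1 with a fold limit of 0.3 on the log2 scale as well; and 0, 0 and 0 with the statistic divided by its robust SD of 1.80. Each of these is stricter by construction. The shares of the 77 genes called were 7.79%, 1.3%, 3.90% and 0%, below those of all genes, 13.4%, 5.69%, 12.7% and 3.6%. The nearness to the background therefore holds at the threshold used, over all genes tested, and not at these. The calls stayed between 13 and 16 under the other alternatives. With genes of a mean of at least 100 only, 19.7% of the mitoribosome genes were called, below the 24.9% of all such genes. The difference of medians between subunits ran from 0.04 to 0.09. With plain means in place of medians the difference was 0.04, and with means weighted by 1/SE squared it was 0.02. After correction for transcript length, GC content and expression, calls went to 0 for proteins with other symbols, 0 for mitochondrial DNA transcription, 0 for mitochondrially encoded proteins, 9 for cytosolic ribosomal proteins and 2 for translation factors. Centring gave 6 for mitochondrially encoded proteins. The cause was not tested. Centring ended 1 of the single calls, and the correction ended 2 (Mrpl24 and Mrpl28) and added 4 (Mrps18a, Mrps18b, Mrpl53 and Mrpl34). Depth per library is unknown; Mrpl23 and Mrps36 had the widest SEs, 0.37 and 0.23.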
